A study of Mus musculus with 6 samples.

Results

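The genes described here are the 4 immunoglobulin heavy-chain constant regions that make mouse IgG: Ighg3, Ighg1, Ighg2b and Ighg2c. They were found as the loci whose deposited gene name equals a member, and all 4 members were found among 44794 loci with a gene name. Spleen RNA was sequenced in 6 samples, 3 from B6.Sle1b mice and 3 from Sle1b.IFNγR-/- mice. B6.Sle1b is a C57BL/6 line with the lupus-associated Sle1b interval, and the submitters call it the autoimmune-prone control. Sle1b.IFNγR-/- carries the same interval and lacks the interferon-γ receptor; the sources used here state neither the targeted receptor chain nor any restriction to a cell type. Mice of both genotypes were treated for 4 weeks with 3 doses per week of imiquimod, which activates the RNA sensor TLR7, so the interval and the treatment are shared by every sample and no untreated sample was analysed here. The sources used here state neither age nor sex, nor whether each sample is a separate mouse. The study asks how interferon-γ promotes the entry of autoreactive B cells into the antibody-forming and germinal centre pathways, and switched IgG is made in both.

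A B cell first makes IgM and IgD, and class switch recombination then joins its variable region to a downstream constant region by deleting the DNA between them. Cytokines steer the choice by starting non-coding germline transcripts across the constant region that will be used. In mouse B cells, interferon-γ and the transcription factor T-bet favour IgG2c in C57BL/6 mice (IgG2a in other strains) and also IgG3, IL-4 favours IgG1 and IgE, and TGF-β favours IgG2b and IgA. IgG2c and IgG2b bind activating Fc receptors and complement well, IgG1 does so less, and IgG3 self-associates and is typical of responses to repetitive antigens. RNA of a constant region in spleen therefore comes from germline transcripts, from switched memory and germinal centre cells and, in the largest amounts per cell, from antibody-forming cells.

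All 4 genes lie on chromosome 12 on the minus strand, here with GENCODE coordinates on build GRCm38, in the order Ighm, Ighd, Ighg3, Ighg1, Ighg2b, Ighg2c, Ighe and Igha along the direction of transcription. Ighg3 spans 113356224 to 113361232, Ighg1 113325240 to 113330523, Ighg2b 113302965 to 113307933 and Ighg2c 113285325 to 113288932. Each secreted transcript has 4 exons, for the CH1 domain, the hinge, and the CH2 and CH3 domains, and is 1082 (Ighg3), 1076 (Ighg1), 1114 (Ighg2b) or 1111 (Ighg2c) bases long. The hinge exon had the lowest identity in 5 of the 6 pairs of genes, so it is printed for each gene as the transcript reads it, with the in-frame cysteine codons (TGC or TGT) in capitals; hinge cysteines pair the heavy chains with each other.
Ighg3: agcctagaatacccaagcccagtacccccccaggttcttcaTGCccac
Ighg1: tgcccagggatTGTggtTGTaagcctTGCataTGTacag
Ighg2b: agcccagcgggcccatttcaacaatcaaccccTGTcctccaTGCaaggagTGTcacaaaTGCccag
Ighg2c: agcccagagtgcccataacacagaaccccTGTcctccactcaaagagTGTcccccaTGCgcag

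These exons lie at chr12:113360529-113360576 for Ighg3, chr12:113329844-113329882 for Ighg1, chr12:113307261-113307326 for Ighg2b and chr12:113288263-113288325 for Ighg2c. The Ighg3 hinge holds 1 such codon, the Ighg1 and Ighg2b hinges 4 each and the Ighg2c hinge 3. Over the 6 pairs of genes, hinge identity ran from 39.6% to 77.3%, against 78.4% to 88.3% in CH1, 73.9% to 94.2% in CH2 and 64.7% to 76.6% in CH3. The closest hinges and CH2 exons were those of Ighg2b and Ighg2c, with 77.3% and 94.2%, and in this pair CH3 was slightly less alike than the hinge (76.6%). Sequence this close matters for counting, because a read inside a shared stretch cannot be given to 1 gene. In windows of 50 bases, none of the Ighg3 or Ighg1 transcript was shared with another member, while 56 windows were shared between Ighg2b and Ighg2c, leaving 94.7% of each of those transcripts distinct. In windows of 100 bases all of each transcript was distinct. The sources used here state neither the read length nor how reads with several positions were counted, so the split between Ighg2b and Ighg2c carries this uncertainty.

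The values are the authors' scaled fragment counts per locus. The libraries held between 4394299 and 6349827 fragments. Of these, 27.0% lay at named loci in B6.Sle1b replicate 1, against 17.5% to 20.0% in the other libraries. B6.Sle1b replicate 1 stood apart: the median level of 29 ribosomal protein genes, relative to the geometric mean of all 6 libraries, was 2.66 in it against 0.743 and 0.981 in B6.Sle1b replicates 2 and 3 and 0.788 to 0.888 in Sle1b.IFNγR-/-. For 17 markers of antibody-forming cells the same measure was 3.45 in that library, 0.707 and 1.19 in the other B6.Sle1b libraries and 0.604 to 0.775 in Sle1b.IFNγR-/-. For 13 B cell markers it was 1.88, then 0.670 and 1.05, against 0.875 to 0.963. The log2 level of 12 housekeeping genes was 1.69, then -0.88 and 0.13, against -0.29 to -0.071. The level of each IgG gene below is therefore given with and without B6.Sle1b replicate 1, and shares and ratios within a library follow, from which a factor common to the members cancels. An amount added equally to each member would not cancel from the shares and ratios, and its presence was not tested. Of the receptor genes, Ifngr1 (the ligand-binding chain) had 81.5, 34.5 and 63.7 scaled counts in B6.Sle1b against 43.7, 21.4 and 24.0 in Sle1b.IFNγR-/-, with overlap. Ifngr2 (the signalling chain) had 13.2, 12.3 and 7.50 against 5.25, 10.1 and 4.79, also with overlap. Total counts over a gene do not show a targeted exon, so neither checks the genotype labels.

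All 4 IgG genes had lower scaled counts in every Sle1b.IFNγR-/- library than in any B6.Sle1b library, but none passed the test across all genes. The gap was wide for Ighg2c and Ighg3, moderate for Ighg2b and narrow for Ighg1. B6.Sle1b replicate 1 carried most of each B6.Sle1b mean. In bulk spleen RNA, fewer cells that express a gene and less RNA per cell cannot be told apart.

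Ighg2c, the subclass tied to interferon-γ and T-bet, had 7273, 512 and 821 scaled counts in B6.Sle1b replicates 1 to 3 and 213, 236 and 264 in Sle1b.IFNγR-/- replicates 1 to 3. The lowest B6.Sle1b library was thus well above the highest Sle1b.IFNγR-/- library. The means were 2869 ± 3818 and 238 ± 25.1 (SD, n = 3 each), and the ratio of means, B6.Sle1b over Sle1b.IFNγR-/-, was 12.1, or 2.81 without B6.Sle1b replicate 1. Ighg3 had 3553, 389.7 and 481 scaled counts in B6.Sle1b against 163, 164 and 183 in Sle1b.IFNγR-/-. Here too the groups did not overlap, and the Sle1b.IFNγR-/- libraries lay close together. The Ighg3 means were 1475 ± 1801 and 170.0 ± 11.5 (SD, n = 3 each), a ratio of 8.67, or 2.56 without B6.Sle1b replicate 1.

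Ighg2b, the subclass tied to TGF-β, had 4614, 457 and 614 scaled counts in B6.Sle1b against 353, 327 and 375 in Sle1b.IFNγR-/-. Apart from B6.Sle1b replicate 1, the libraries of the 2 groups were near each other without overlapping. Its means were 1895 ± 2356 and 352 ± 24.0 (SD, n = 3 each), a ratio of 5.39, or 1.52 without that library. Ighg1, the subclass tied to IL-4, had 1117, 418 and 327 scaled counts in B6.Sle1b against 276, 309 and 319.8 in Sle1b.IFNγR-/-. B6.Sle1b replicate 3 exceeded the highest Sle1b.IFNγR-/- library by a margin within the spread of the latter group. The Ighg1 means were 621 ± 432 and 302 ± 22.7 (SD, n = 3 each), a ratio of 2.06, or 1.23 without B6.Sle1b replicate 1. B6.Sle1b replicate 1 exceeded the mean of the other B6.Sle1b libraries 10.9 times for Ighg2c, 8.62 times for Ighg2b, 8.16 times for Ighg3 and 3.00 times for Ighg1.

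**Figure D1:**
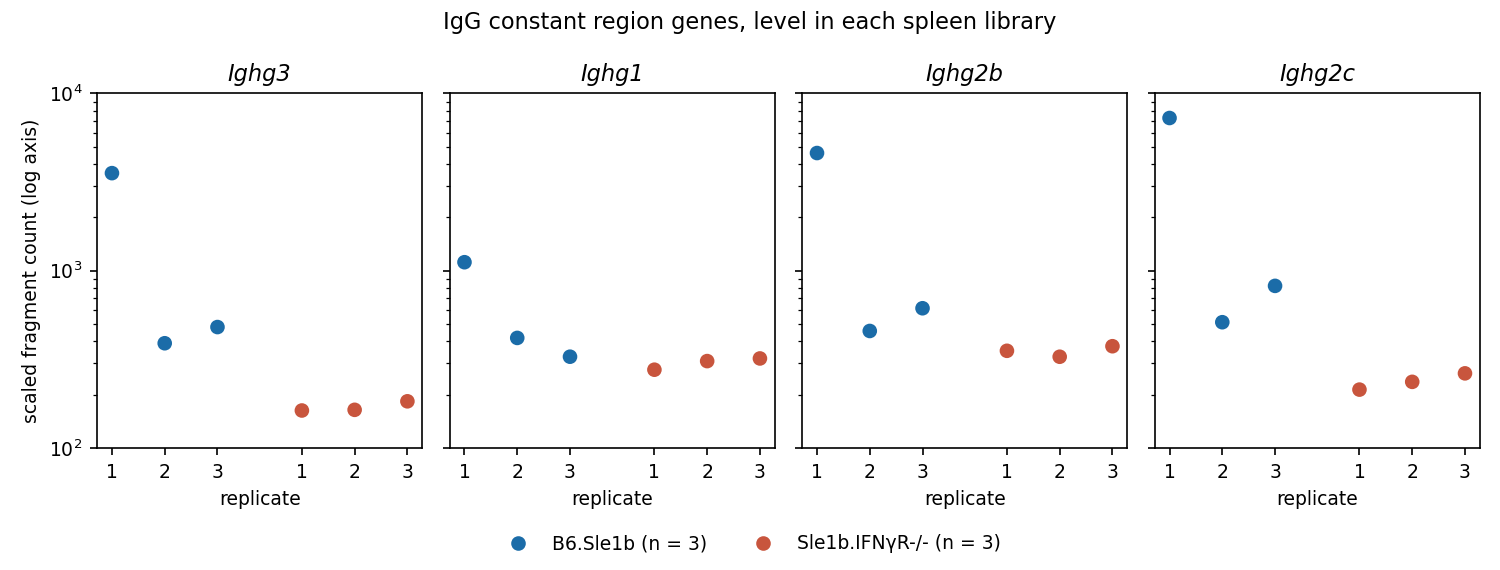
Scaled fragment count of each IgG constant region gene (log axis) in each library, 1 point per library, with 3 libraries per genotype numbered by replicate. Every Sle1b.IFNγR-/- point lies below every B6.Sle1b point of the same gene, with 327 against 319.8 as the narrowest gap (Ighg1), and B6.Sle1b replicate 1 is the highest point in each panel.

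On the log2(value + 1) scale, limma gave differences, Sle1b.IFNγR-/- minus B6.Sle1b, of -2.61 (SE 0.69) for Ighg2c, -2.36 (SE 0.61) for Ighg3, -1.63 (SE 0.62) for Ighg2b and -0.83 (SE 0.38) for Ighg1. Benjamini-Hochberg adjusted p in limma was 0.9998 for each, and 0 of 19227 tested loci passed 0.05, or 0% (596 loci, 3.1%, had an unadjusted p under 0.05). The unadjusted p was 0.0023 for Ighg2c, 0.0019 for Ighg3, 0.021 for Ighg2b and 0.047 for Ighg1 in limma. All 4 thus had an unadjusted p under 0.05 with lower values in Sle1b.IFNγR-/-, as did 2.08% of tested loci. Ordered by p, Ighg3 had rank 5, Ighg2c rank 7, Ighg2b rank 186 and Ighg1 rank 549 of 19227. All 4 had groups that did not overlap with lower values in Sle1b.IFNγR-/-, as did 5.19% of tested loci (3.51% with higher values, 8.7% in either direction).

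Ighg2c and Ighg3 passed the threshold in some fits that took account of the library that stood apart, and Ighg2b and Ighg1 did not. With the ribosomal protein level as a covariate, the log2 difference was -1.47 (SE 0.20, limma adjusted p = 0.0013) for Ighg2c and -1.38 (SE 0.21, limma adjusted p = 0.0027) for Ighg3. In that fit 0.0208% of loci passed with lower values (0.0624% in either direction). With single libraries left out of that fit, the limma adjusted p of Ighg3 was over 0.05 without B6.Sle1b replicate 2 (0.38) or Sle1b.IFNγR-/- replicate 1 (0.149), and that of Ighg2c without Sle1b.IFNγR-/- replicate 1 (0.109). Scaling to the ribosomal protein genes gave -2.06 (limma adjusted p = 0.070) and -1.81 (limma adjusted p = 0.29), short of the threshold. With the covariate, Ighg2b at -0.62 (SE 0.19, limma adjusted p = 0.72) and Ighg1 at -0.34 (SE 0.21, limma adjusted p = 0.94) did not pass. The ribosomal protein level mainly set B6.Sle1b replicate 1 apart (2.66, against 0.743 to 0.981 in the other libraries). The covariate fit and the fit without that library are therefore not separate evidence. Without B6.Sle1b replicate 1 the differences were -1.45 (SE 0.22) for Ighg2c and -1.35 (SE 0.21) for Ighg3, each with a limma adjusted p of 0.011, and these were the 2 loci (0.0104%) that passed with lower values (0.026% passed in either direction). Without B6.Sle1b replicate 2, the B6.Sle1b library of lowest ribosomal level, they were -3.36 (limma adjusted p = 0.013) and -2.94 (limma adjusted p = 0.019), and 0.026% of loci passed, all with lower values. Leaving out any of the other 4 libraries left both without a pass, so the size of the log2 difference depended on the library left out while its sign did not.

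**Figure D2:**
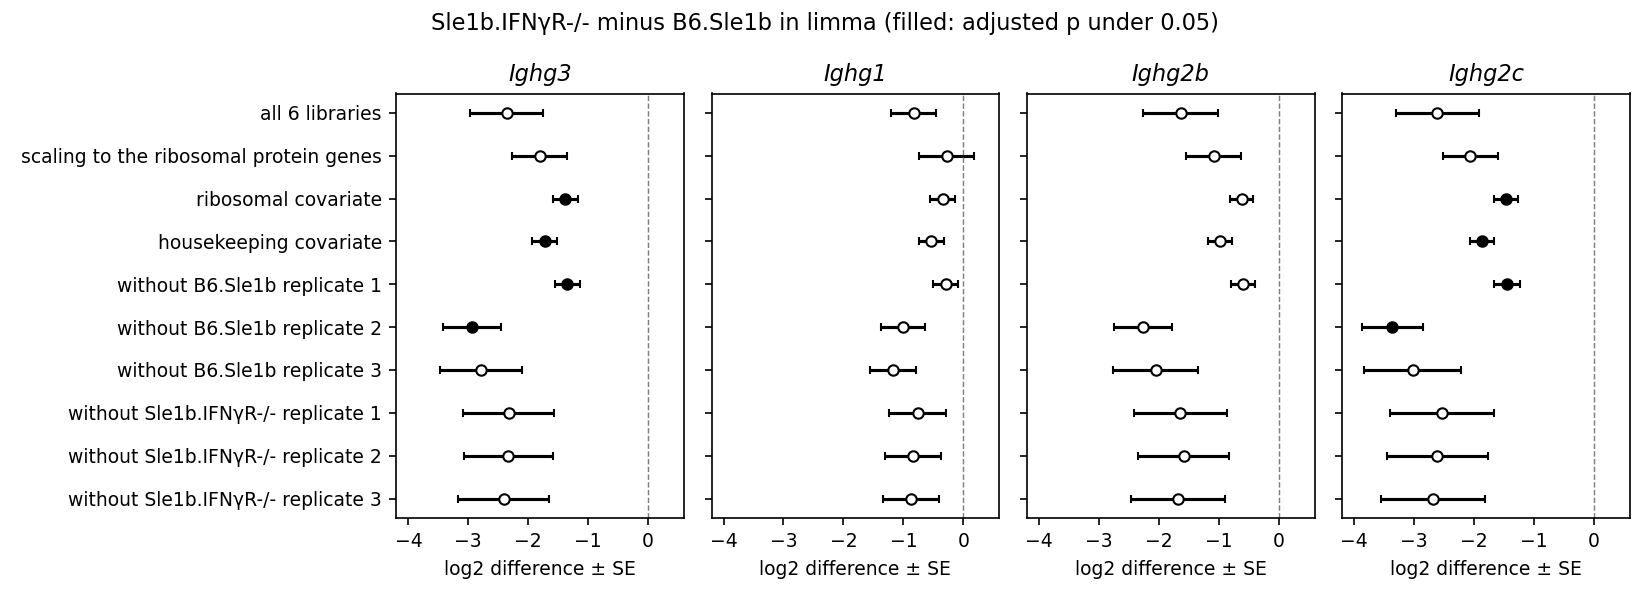
Log2 difference, Sle1b.IFNγR-/- minus B6.Sle1b, with its SE for each IgG gene in limma, under the scaling and covariate alternatives and with each library left out; filled points have an adjusted p under 0.05. Ighg2c and Ighg3 stay at or below -1.35 in every row shown, and Ighg1 comes nearest to 0 (-0.28 with scaling to the ribosomal protein genes).

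The make-up of IgG RNA within a library did not overlap between the genotypes for any of the 4 genes: Ighg2c and Ighg3 held smaller shares in each Sle1b.IFNγR-/- library, and Ighg1 and Ighg2b larger ones. A share is a gene's scaled count as a percentage of the sum of the 4 genes, and shares of one library add to 100%, so a higher share of one gene goes with lower shares of others. The shares rest on 16249, 2161 and 2393 fragments in B6.Sle1b against 1150, 922 and 953 in Sle1b.IFNγR-/-, and the Wilson 95% intervals below cover counting error only.

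Ighg2c made up 43.9%, 28.8% and 36.6% of IgG RNA in B6.Sle1b against 21.2%, 22.8% and 23.1% in Sle1b.IFNγR-/-. The groups did not overlap, and within B6.Sle1b the intervals (43.2% to 44.7%, 27.0% to 30.8% and 34.7% to 38.6%) were apart, so these libraries differed by more than counting error. The difference of means was -14.1 percentage points (36.5% ± 7.55 against 22.4% ± 1.00, SD, n = 3 each; two-sided exact permutation p = 0.1), or -10.4 without B6.Sle1b replicate 1. Ighg3 made up 21.5%, 21.9% and 21.4% in B6.Sle1b against 16.2%, 15.8% and 16.1% in Sle1b.IFNγR-/-. Its share had the smallest SD of the 4 genes in each genotype, although its level in B6.Sle1b replicate 1 was 8.16 times the mean of the other B6.Sle1b libraries. The lowest interval bound in B6.Sle1b was 19.8% and the highest bound in Sle1b.IFNγR-/- 18.5%, so the intervals of the 2 groups were apart. The difference was -5.59 points (21.6% ± 0.28 against 16.0% ± 0.17, SD, n = 3 each; exact permutation p = 0.1), or -5.66 without B6.Sle1b replicate 1.

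Ighg1 made up 6.75%, 23.5% and 14.6% in B6.Sle1b against 27.5%, 29.8% and 28.0% in Sle1b.IFNγR-/-. The B6.Sle1b libraries again differed by more than counting error (intervals 6.37% to 7.14%, 21.8% to 25.3% and 13.2% to 16.1%), and the interval of B6.Sle1b replicate 2 met that of Sle1b.IFNγR-/- replicate 1 (25.0% to 30.1%). The Ighg1 difference was 13.5 points (14.9% ± 8.39 against 28.4% ± 1.23, SD, n = 3 each; exact permutation p = 0.1), or 9.39 without B6.Sle1b replicate 1. This higher share went with a scaled count below that of each B6.Sle1b library. Ighg2b made up 27.9%, 25.7% and 27.4% in B6.Sle1b against 35.1%, 31.6% and 32.8% in Sle1b.IFNγR-/-, a difference of 6.19 points (27.0% ± 1.12 against 33.2% ± 1.81, SD, n = 3 each; exact permutation p = 0.1), or 6.63 without B6.Sle1b replicate 1. Here the intervals met, with 29.2% as the highest bound in B6.Sle1b and 28.6% as the lowest in Sle1b.IFNγR-/-. The direction for Ighg2b depended on the sum it was set against. Without Ighg2c in the sum it was -0.29 points (exact permutation p = 0.9), and as a share of all 8 heavy-chain constant regions -2.35 points (exact permutation p = 0.4).

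In Sle1b.IFNγR-/- the interval of each gene's share overlapped those of the same gene in the other libraries of the group. In B6.Sle1b the library with the largest Ighg2c share, replicate 1, had the smallest Ighg1 share, and replicate 2 the reverse. With 3 against 3 libraries the smallest two-sided exact p is 0.1, so none of the 4 shares, 6 ratios and 3 ratios of the IgG sum compared, 13 values in all, could pass 0.05.

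**Figure D3:**
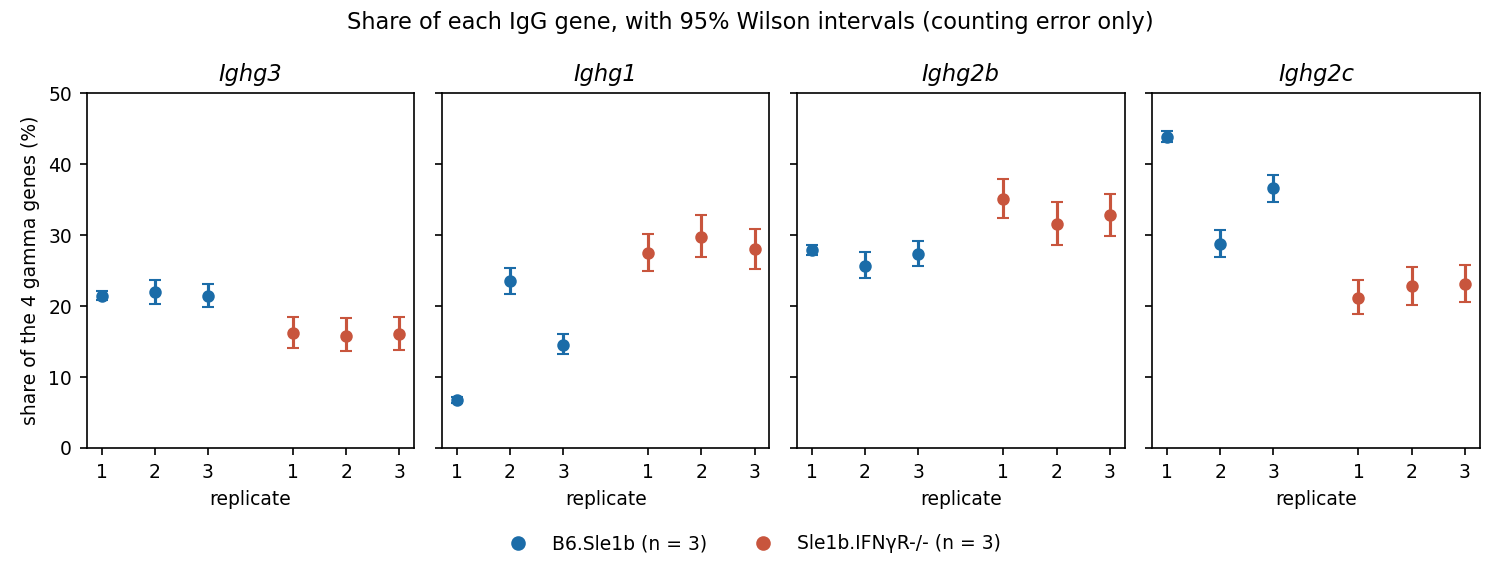
Share of each gene in the sum of the 4 IgG genes (percent) in each library, with Wilson 95% intervals that cover counting error only, for 3 libraries per genotype numbered by replicate. Ighg3 sits at 21.4% to 21.9% against 15.8% to 16.2%, while Ighg1 and Ighg2c spread widely within B6.Sle1b (6.75% to 23.5% and 28.8% to 43.9%) and narrowly within Sle1b.IFNγR-/-.

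Ratios between pairs of IgG genes placed Ighg2c and Ighg3 on one side and Ighg1 and Ighg2b on the other: the 4 ratios across these sides did not overlap between the genotypes, and the 2 ratios within a side did. The overlap within the sides rested on B6.Sle1b replicate 2, without which neither of the 2 ratios overlapped. The ratios and the shares are built from the same 4 counts per library, so they are not separate results. The Ighg2c/Ighg1 ratio of scaled counts, which sets the interferon-γ subclass against the IL-4 subclass, was 6.51, 1.23 and 2.51 in B6.Sle1b against 0.772, 0.764 and 0.824 in Sle1b.IFNγR-/-. It was thus above 1 in each B6.Sle1b library and below 1 in each Sle1b.IFNγR-/- library. The side of 1 depends on the length used: per kilobase of all annotated exons, Ighg2c was above Ighg1 in every library. The log2 difference, which a fixed length per gene does not change, was -1.79 (1.44 ± 1.21 against -0.35 ± 0.059, SD, n = 3 each, exact permutation p = 0.1). Ighg3/Ighg1 was 3.18, 0.933 and 1.47 against 0.589, 0.531 and 0.573, a log2 difference of -1.54 (exact permutation p = 0.1). Without B6.Sle1b replicate 1 these differences were -1.16 and -1.06.

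Against Ighg2b the spread within B6.Sle1b was smaller. Ighg2c/Ighg2b was 1.58, 1.12 and 1.34 in B6.Sle1b against 0.604, 0.722 and 0.703 in Sle1b.IFNγR-/-, with a log2 difference of -0.98 (0.41 ± 0.25 against -0.57 ± 0.14, SD, n = 3 each; exact permutation p = 0.1), or -0.86 without B6.Sle1b replicate 1. Ighg3/Ighg2b, the ratio of smallest SD in B6.Sle1b, was 0.770, 0.853 and 0.783 against 0.460, 0.502 and 0.489. Its log2 difference was -0.73 (-0.32 ± 0.079 against -1.05 ± 0.064, SD, n = 3 each; exact permutation p = 0.1), or -0.76 without B6.Sle1b replicate 1. Within the sides, Ighg2c/Ighg3 was 2.05, 1.31 and 1.71 against 1.31, 1.44 and 1.44, a log2 difference of -0.25 (exact permutation p = 0.3). Leaving out B6.Sle1b replicate 1 gave -0.10, and leaving out replicate 2 gave -0.42. Ighg2b/Ighg1 was 4.13, 1.09 and 1.88 against 1.28, 1.06 and 1.17, a log2 difference of -0.81 (exact permutation p = 0.3) that was -0.30 without B6.Sle1b replicate 1 and -1.26 without replicate 2.

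**Figure D4:**
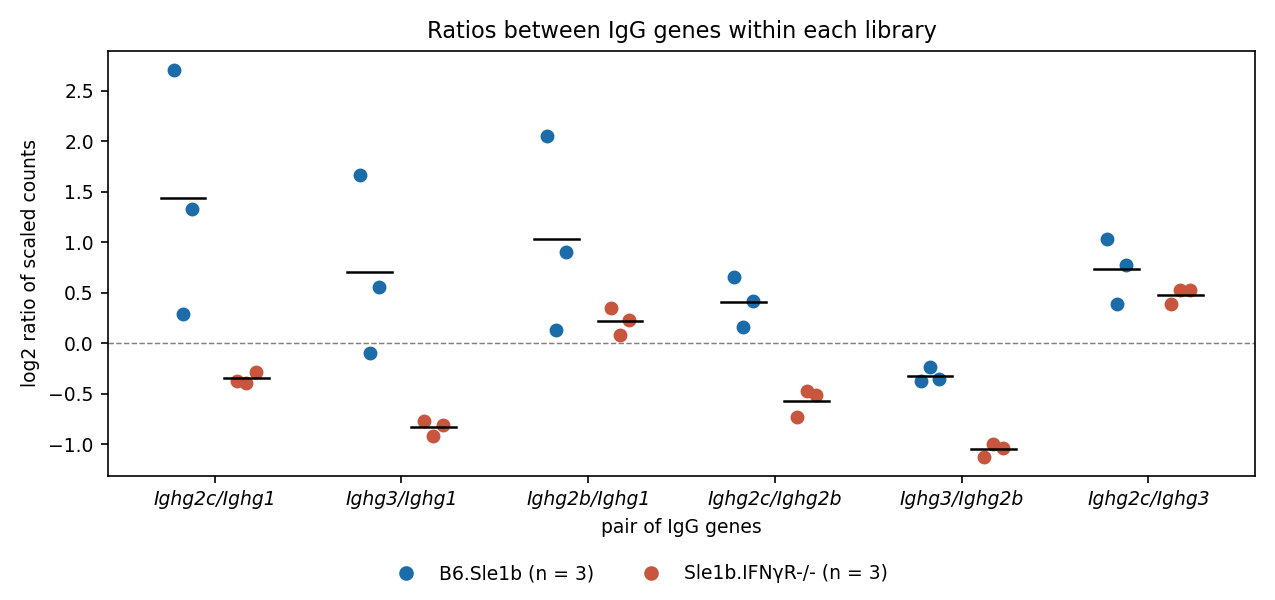
Log2 ratio of scaled counts for the 6 pairs of IgG genes, 1 point per library and a line at the mean of each genotype (n = 3 each). Ighg2c/Ighg1, Ighg3/Ighg1, Ighg2c/Ighg2b and Ighg3/Ighg2b do not overlap between the genotypes, and Ighg2b/Ighg1 and Ighg2c/Ighg3 do.

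Levels can be compared between genes only per length. Per kilobase of secreted transcript, Ighg2c was the highest IgG gene in all 3 B6.Sle1b libraries and the third in all 3 Sle1b.IFNγR-/- libraries. The means in scaled counts per kilobase were 2582 for Ighg2c, 1701 for Ighg2b, 1363 for Ighg3 and 577 for Ighg1 in B6.Sle1b, where the ranges of neighbouring genes overlapped. Ighg2c stood above Ighg2b in each library there, and Ighg3 and Ighg1 changed places in replicate 2. In Sle1b.IFNγR-/- the means were 316 for Ighg2b, 280.4 for Ighg1, 214 for Ighg2c and 157 for Ighg3, an order found in each library. The ranges of Ighg2b (294 to 337) and Ighg1 (257 to 297) overlapped, while Ighg2c (192 to 237) and Ighg3 (150.3 to 169) stood apart from their neighbours. The first place depends on the length used. Per kilobase of all annotated exons, which include the exons of the membrane form and differ in total from 1326 bases (Ighg2c) to 2678 (Ighg2b), Ighg2c was first in all 6 libraries, and the order in Sle1b.IFNγR-/- was Ighg2c, Ighg2b, Ighg1 and Ighg3. The differences of shares between genotypes kept their sign under both lengths.

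The sum of the 4 IgG genes was 16557, 1777 and 2243 scaled counts in B6.Sle1b against 1006, 1036 and 1142 in Sle1b.IFNγR-/-, with no overlap. Among the 8 heavy-chain constant regions it held 69.8%, 54.5% and 44.8% in B6.Sle1b against 38.2%, 39.5% and 39.1% in Sle1b.IFNγR-/- (56.4% ± 12.6 against 38.9% ± 0.65, SD, n = 3 each; exact permutation p = 0.1). Relative to Ighm, the IgM constant region, the sum was 2.83, 1.50 and 0.995 against 0.898, 1.03 and 0.910, with overlap (log2 difference -0.77, exact permutation p = 0.2). That difference was -0.37 without B6.Sle1b replicate 1 and -1.13 without replicate 3, where the groups did not overlap. Relative to Igkc, the kappa light-chain constant region that pairs with any heavy chain, it was 1.79, 2.62 and 2.05 against 2.37, 2.90 and 2.48, with overlap and the opposite sign (log2 difference 0.28, exact permutation p = 0.3). Leaving out B6.Sle1b replicate 1 or 2 made it 0.15 or 0.43. IgG RNA as a whole thus did not overlap between the genotypes relative to the heavy-chain sum, and with all 6 libraries overlapped relative to Ighm and to Igkc.

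Set against Ighm one by one, Ighg2c and Ighg3 did not overlap between the genotypes, and Ighg2b and Ighg1 did. The log2 difference of the ratio to Ighm was -1.46 for Ighg2c and -1.21 for Ighg3 (exact permutation p = 0.1 each), -0.48 for Ighg2b (p = 0.4) and 0.33 for Ighg1 (p = 0.5). Against the median level of the 17 antibody-forming cell markers, which like the IgG sum was highest in B6.Sle1b replicate 1, the log2 difference was -1.56 for Ighg2c and -1.31 for Ighg3 (exact permutation p = 0.1 each), again with no overlap. Against the same markers it was -0.58 for Ighg2b (exact permutation p = 0.2) and 0.23 for Ighg1 (exact permutation p = 0.6), both with overlap. Without B6.Sle1b replicate 1 the differences against Ighm were -0.91 for Ighg2c, -0.81 for Ighg3, -0.050 for Ighg2b and 0.25 for Ighg1, and those against these markers -1.03, -0.93, -0.17 and 0.12, with no overlap for Ighg2c and Ighg3 in either. Ighg1 depended on B6.Sle1b replicate 2, without which its differences were 0.69 against Ighm and 0.56 against the markers, and on replicate 3, without which they were 0.049 and 0.0045. Without replicate 3 those of Ighg2b were -0.82 and -0.86.

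Among the other constant regions, Igkc had 9267, 677 and 1097 scaled counts in B6.Sle1b against 424, 357 and 461 in Sle1b.IFNγR-/- (log2 difference -2.21, limma adjusted p = 0.9998). Ighe, the IgE constant region and like Ighg1 a target of IL-4, had 106, 127 and 136 scaled counts in B6.Sle1b against 96.2, 103 and 93.4 in Sle1b.IFNγR-/-, with no overlap (log2 difference -0.32, limma adjusted p = 0.9998). In B6.Sle1b replicate 1 Ighe was the lowest of its group. Igha, like Ighg2b a target of TGF-β, had 762, 75.6 and 115 scaled counts in B6.Sle1b against 241, 285 and 242 in Sle1b.IFNγR-/-. Igha therefore lay above B6.Sle1b replicates 2 and 3 in each Sle1b.IFNγR-/- library, unlike any IgG gene. Its log2 difference was 0.44 (limma adjusted p = 0.9998), 1.44 without B6.Sle1b replicate 1 (limma adjusted p = 0.015), -0.22 without replicate 2, 0.085 without replicate 3 and 1.44 with the ribosomal covariate (limma adjusted p = 0.0027). That of Igkc was -1.06 without B6.Sle1b replicate 1 (limma adjusted p = 0.13), -2.95 without replicate 2 (limma adjusted p = 0.028) and -1.08 with the covariate (limma adjusted p = 0.018). Ighm at -1.16 (-0.54 without B6.Sle1b replicate 1), Ighd at -0.26 and the lambda regions Iglc1 at -0.42, Iglc3 at -0.93 and Iglc2 at -1.01 had a limma adjusted p of 0.9998 each, and Iglc2 shares its locus with Iglj2.

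The genes known to steer and carry out switching did not pass the test in any list, and Ifng and Il4 had few or no counted fragments. All 19227 tested loci had a median log2 difference of -0.083, with 11168 lower and 8059 higher, which is the background for the medians below. In the interferon-γ and T-bet list, 0 of 8 tested loci passed, 5 were lower and 3 higher, and the median was -0.51. The locus of smallest p was Ifngr1 (-0.98, limma adjusted p = 0.9998). Tbx21, which encodes T-bet, was under the minimum mean of 10 with 16.5, 14.3 and 5.29 scaled counts in B6.Sle1b against 7.57, 2.96 and 5.08 in Sle1b.IFNγR-/-, with overlap. Ifng, the cytokine itself, had 6.11, 4.11 and 3.75 against 2.62, 0 and 2.40, with no overlap but few or no fragments in each library.

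In the IL-4 list, 0 of 4 passed, all 4 were lower and the median was -0.23. It was led by Stat6, the transcription factor of IL-4 signalling (-0.49), and a locus holding Il2rg, the shared cytokine receptor chain (-0.35), and Il4 was listed at 0 in all 6 libraries. In the TGF-β list, 0 of 7 passed, all 7 were lower, the median was -0.27, and the loci of smallest p were Tgfb2, a TGF-β ligand (-0.97), and Smad3, a signal transducer (-0.45). Among innate, CD40 and IL-21 signals 0 of 16 passed, with 10 lower, 6 higher and a median of -0.30. The nucleic acid sensing genes Irf7 (-1.35) and Tlr9 (-0.66) came first there, Tlr9 with no overlap. Il21, the T cell cytokine that drives IgG responses, had 31.6, 36.2 and 37.5 scaled counts in B6.Sle1b against 39.3, 49.4 and 55.1 in Sle1b.IFNγR-/-. It was thus higher with no overlap (0.43, limma adjusted p = 0.9998). In this list 1 of 16 tested loci was lower and 1 higher without overlap, against 5.19% and 3.51% of all tested loci. In the recombination machinery 0 of 24 passed, 18 were lower, 6 higher, and the median was -0.15. Among those of smallest p was the mismatch repair gene Msh6 (-0.55; 130.4, 56.7 and 87.2 scaled counts against 74.3, 50.6 and 53.9, with overlap). The limma adjusted p of each tested gene named in these lists was 0.9998. Most of each list's median came with 1 library: without B6.Sle1b replicate 1 the medians were -0.073 for the interferon-γ list, 0.078 for the IL-4 list, -0.044 for the TGF-β list, 0.036 for the innate, CD40 and IL-21 list and 0.0060 for the recombination machinery, against 0.019 over all tested loci.

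Cells that carry IgG were described by marker lists in the same fit, and none of the markers passed with genotype as the only term (limma adjusted p = 0.9998 for each gene named here). Antibody-forming cell markers had 16 of 17 loci lower, 7 of them without overlap (5.19% of all tested loci were lower without overlap), and a median of -0.94, led by the secretory pathway genes Creld2 (-2.61) and Derl3 (-1.61). Germinal centre markers had 7 of 8 lower, 1 of them without overlap, and a median of -0.48. First were Bcl6, the factor that defines these cells (-1.25), and Mybl1 (-0.97). Bcl6 had 95.8, 37.8 and 82.5 scaled counts against 35.9, 21.4 and 27.6, with no overlap. B cell markers had 11 of 13 lower and a median of -0.28, with the antigen receptor subunit Cd79a (-1.10) and Cd72 (-0.53). T cell markers (5 of 7 lower, median -0.26) were led by Cd4 (-0.56) and Cd28 (-0.56). Monocyte, macrophage and neutrophil markers (9 of 12 lower, median -0.13) were led by Ly6c2 (-1.08) and the red pulp macrophage factor Spic (0.82). Erythroid markers (3 of 10 lower, median 0.17) were led by Gata1 (-0.37) and Epor (0.56). Of the receptors that bind IgG, 5 of 6 loci were lower with a median of -0.36, and the first were the cytosolic antibody receptor Trim21 (-0.64) and Fcgr4, an activating receptor for IgG2c and IgG2b (-0.68). The part of these cell types in the IgG levels was not tested. Without B6.Sle1b replicate 1 the medians were -0.29 for antibody-forming cell markers, -0.11 for germinal centre markers, 0.14 for B cell markers, -0.069 for T cell markers, 0.26 for the monocyte, macrophage and neutrophil list, 1.10 for erythroid markers and -0.28 for the IgG receptors, and that of the IgG genes was -0.97. The erythroid median was thus farther from 0 in a fit where Ighg2c and Ighg3 passed. With the ribosomal covariate it was 1.11, and 3 of its 10 loci were among the 12 that passed.

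Named loci were ranked by likeness of pattern to each IgG gene, by Pearson's r of log2(value + 1) over the 6 libraries, among 4839 loci with a mean of at least 50 that are not immunoglobulin segments. Among the 3 most like each gene were, for Ighg3, Sec24a (r = 0.992) and Tenm1 (r = 0.991), for Ighg2c Tenm1 (r = 0.993) and a locus of Hnrnpa3 with Gm24574 (r = 0.9895), for Ighg2b Zfhx3 and Ddx23 (r = 0.994 each) and for Ighg1 Map2k5, Ptpn6 and Otud5 (r = 0.992 to 0.995). Without B6.Sle1b replicate 1, r for these pairs ran from 0.870 to 0.973 over 5 libraries. The points share the libraries and their RNA level, and the values are a description.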

How the data were processed

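Spleen RNA of 3 B6.Sle1b and 3 Sle1b.IFNγR-/- samples was extracted with TRIzol and amplified with the NuGEN Ovation V2 kit, per the labels' protocols. CASAVA, TopHat2 2.0.9, Cufflinks 2.2.1 and GRCm38 were used, per the submitters' processing notes. The deposited values are signal: fragments per locus after quartile scaling by the authors, per the file headers and name of the table. The annotation release, the strand setting and the counting of reads with several positions were not stated, so overlapping or antisense genes may share reads. The 1530481 rows repeat each locus per transcript and were collapsed to 426574 loci, of which 44794 have a name and 1170 more than 1 name. Within 0.01 of a step, 99.8% of positive values were whole multiples of 1 step per library (0.822 to 1.198), and dividing by it gave the fragments behind the shares. As the remaining values were not whole, the planned tests for counts could not apply and the values were treated as signal. Another 24 per-sample columns were not used.

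The 19227 named loci whose mean reached 10 were log2-transformed after adding 1 and fitted in limma (version 3.58.1, R 4.3.3) with a mean-variance trend, genotype as the only term and Benjamini-Hochberg adjustment over all of them. Fold changes of low genes come out too small on this scale. The fit was tested on simulated data with known changes. In the simulated data large spreads were capped and no library stood apart, so that setting differs from these data. For shares and ratios the test was an exact permutation test, two-sided (python 3.11.15, scipy 1.17.1, numpy 2.4.6, pandas 2.3.3; figures with matplotlib 3.10.9). P-values measure the spread between samples, which the labels do not tie to separate mice. Hinge sequences, positions and lengths come from GENCODE mouse transcripts on GRCm38, aligned with biopython 1.88. The members and the 16 gene lists were chosen with earlier results of these data known. Named are the 4 IgG genes, the 8 other constant regions, the 2 loci of smallest p in each list, and the 3 loci most like each IgG gene; Ifngr2, Tbx21, Ifng, Il4 and Il21 were added for their known roles. Some loci that this rule takes are not reported here. Shares per kilobase and the covariate with single libraries left out were added after seeing the data.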

Additional observations from a re-analysis of the deposited data

How the results depend on the processing

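The log2 differences of Ighg3, Ighg2b and Ighg2c kept their sign under every alternative run: median-ratio, upper-quartile or ribosomal scaling, ribosomal or housekeeping covariates, other filters, pseudocounts of 0.5 and 10, robust limma, all loci named or not, a replicate block and each library left out. The planned count tests were not run, since whole fragments could not be recovered for every value. The count of loci past an adjusted p of 0.05 was 0 in the reported fit, 1 with scaling to the ribosomal protein genes, 12 with the ribosomal covariate, 6 with the housekeeping covariate, 6 with all loci, and 0 to 5 with single libraries left out (5 each without B6.Sle1b replicate 1 or 2). For Ighg3 the log2 difference was -1.38 with the ribosomal covariate, -1.73 with the housekeeping covariate (limma adjusted p = 7.8e-05) and -2.36 with all loci (limma adjusted p = 0.0015), and ran from -2.94 to -1.35 with single libraries left out. For Ighg2c it was -1.47, -1.86 (limma adjusted p = 8.2e-06) and -2.61 (limma adjusted p = 0.0015), and ran from -3.36 to -1.45. With all loci the differences were those of the reported fit, and the SE was 0.37 against 0.61 for Ighg3 and 0.40 against 0.69 for Ighg2c. Robust limma also left the differences unchanged but gave a larger SE, 0.85 for Ighg3 and 1.00 for Ighg2c (limma adjusted p = 0.9998 each). With the ribosomal covariate, Ighg3 was at -1.34 without B6.Sle1b replicate 1, -1.56 without B6.Sle1b replicate 3, and -1.31 and -1.52 without Sle1b.IFNγR-/- replicates 2 and 3. Ighg2c was then at -1.45, -1.40 and -1.55 without B6.Sle1b replicates 1 to 3, and -1.41 and -1.65 without Sle1b.IFNγR-/- replicates 2 and 3. Over all libraries left out with that covariate, the limma adjusted p ran from 0.00027 to 0.38 for Ighg3 and from 0.00027 to 0.11 for Ighg2c, so the call with the covariate depended on the library left out. For Ighg1 the sign turned to 0.099 with the ribosomal covariate and without B6.Sle1b replicate 2 (range -1.18 to 0.099). The Ighg2b share turned to -2.35 points among all heavy-chain constant regions and to -0.29 points without Ighg2c in the sum; the cause was not tested.

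Other signs turned as follows, with no turned value past the threshold. With scaling to the ribosomal protein genes, Stat6 was at 0.050, the Il2rg locus at 0.20, Smad3 at 0.083, Cd72 at 0.010, Gata1 at 0.15, Ighe at 0.22, Ighd at 0.29 and Iglc1 at 0.14. With the ribosomal covariate, Stat6 was at 0.070, the Il2rg locus at 0.39, Ighd at 0.31, Iglc1 at 0.85 and Iglc3 at 0.011. With the housekeeping covariate, the Il2rg locus was at 0.16, Ighd at 0.16 and Iglc1 at 0.51. Without B6.Sle1b replicate 1, Stat6 was at 0.056, the Il2rg locus at 0.39, Ighd at 0.26, Iglc1 at 0.72 and Iglc3 at 0.021; with single libraries left out these ranged down to -0.84, -1.02, -0.87, -1.84 and -1.45. Igha ranged from -0.22 (without B6.Sle1b replicate 2) to 1.44 (without replicate 1, limma adjusted p = 0.015), and Iglc2 from -1.71 to 0.087 (without Sle1b.IFNγR-/- replicate 3). Same-numbered libraries had correlations of deviations of 0.012, -0.027 and -0.011, within the range of differently numbered ones (-0.034 to 0.045). These values gave no sign that the replicate numbers pair the samples, but with 3 libraries per group they cannot exclude it. A replicate block gave 0 loci and left the IgG log2 differences at -2.36, -0.83, -1.63 and -2.61; for the shares and ratios its smallest exact p is 0.25. The Sle1b.IFNγR-/- shares rest on only 1150, 922 and 953 IgG fragments, and their Wilson intervals were 4.26 to 5.99 points wide.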
